A study of Mus musculus with 2 samples.

Results

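The cytosolic ribosomal proteins are the protein components of the ribosome that translates nuclear-encoded messages. They were taken here as every row of the deposited gene table whose symbol names a large subunit protein (Rpl or Rplp) or a small subunit protein (Rps or Rpsa), optionally with a paralogue ending. That rule reads symbols only and no measured value, though it was set with earlier results of these data known. It returned 88 of the 51826 genes in the table, 52 for the large subunit and 36 for the small subunit. Of these, 77 were the canonical genes (46 large, 31 small), 6 were further paralogues, and 5 were loci that the GENCODE M21 annotation types as processed pseudogenes (Rps3a2, Rps3a3, Rps4l, Rps12l1 and Rpl6l). Processed copies under other symbols were found afterwards by sequence and are described with their parents.

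Spinal cord RNA of C57BL/6 mice was sequenced at postnatal day 7, with 1 library from wild-type tissue (WT) and 1 from tissue of the genotype Olig1-Cre;Secisbp2l-floxed(Ex3) (cKO). In the cKO, Cre recombinase expressed from the Olig1 gene acts on loxP-flanked exon 3 of Secisbp2l, which encodes a relative of the selenocysteine insertion sequence binding protein, in Olig1-expressing cells of the oligodendrocyte lineage. The RNA came from whole cord, so cells that never expressed the Cre are included, and the number of animals behind each library is not given in the sources used here. With 1 library per genotype there is no replicate error: every ratio below compares 2 libraries, carries no p-value, and has an interval that covers counting error only.

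Each ribosome holds 1 large and 1 small subunit, and apart from the stalk proteins each ribosomal protein is needed in a single copy. The messages are among the most abundant in any cell and belong to the TOP class, which begin with a C followed by a run of pyrimidines and are translated under control of mTOR and Larp1. Mammalian genomes also carry many processed copies of these genes, made by reverse transcription of the spliced message and inserted elsewhere without introns. A short read from the message can match such a copy equally well, which is why copies are printed and summed below.

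The Rps3a family is shown first because it holds the most extreme values in the set. Rps3a1 encodes a small subunit protein that lies near the initiation factor binding face. The 60-base stretch below runs from position 609 to 668 of its coding sequence, counted from 1 at the A of the start codon, and lies in 1 exon of Rps3a1 on chromosome 3 (chr3:86138488-86138547, minus strand, GRCm38). The same stretch is given in 3 processed copies: Rps3a2 (chr14:88123141-88123200, minus strand), Rps3a3 (chr13:108671211-108671270, plus strand) and Gm5586 (chr7:16719243-16719302, minus strand), each in the single exon of an intronless locus. Sequences are 5′ to 3′ from GENCODE M21 transcripts, and capitals mark the 5 positions at which any of the 4 loci differ.
Rps3a1: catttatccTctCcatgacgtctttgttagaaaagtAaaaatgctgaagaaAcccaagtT
Rps3a2: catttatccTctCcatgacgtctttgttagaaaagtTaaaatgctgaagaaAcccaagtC
Rps3a3: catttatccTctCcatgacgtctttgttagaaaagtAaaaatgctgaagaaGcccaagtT
Gm5586: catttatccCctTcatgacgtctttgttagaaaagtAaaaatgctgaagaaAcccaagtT
Over the coding sequence of 795 bases, Rps3a2 differs from Rps3a1 at 4 positions (T216C, T534C, A645T and T668C, parent base first). Rps3a3 differs at 9 positions and Gm5586 at 12. T216C and T534C are shared by all 3 copies. The longest run without a difference was 317 bases in Rps3a2, 215 in Rps3a3 and 186 in Gm5586, so reads that fall inside those runs cannot be assigned to a locus by sequence.

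Rpl34, a large subunit protein gene, is the second family shown because its parent and copies differed between the libraries in opposite directions. The 195 bases run from position 128 to 322 of a coding sequence of 354 bases. In Rpl34 they span introns within chr3:130726907-130729088 (minus strand). They are continuous in the copies Rpl34-ps1 (chr6:71124737-71124931, plus strand) and Gm10154 (chr4:83505217-83505411, minus strand). Capitals mark the 4 positions at which any of the 3 loci differ.
Rpl34: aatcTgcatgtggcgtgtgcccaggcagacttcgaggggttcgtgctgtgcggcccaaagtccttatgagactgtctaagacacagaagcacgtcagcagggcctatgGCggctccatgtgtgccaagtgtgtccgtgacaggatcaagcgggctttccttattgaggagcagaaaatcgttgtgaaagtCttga
Rpl34-ps1: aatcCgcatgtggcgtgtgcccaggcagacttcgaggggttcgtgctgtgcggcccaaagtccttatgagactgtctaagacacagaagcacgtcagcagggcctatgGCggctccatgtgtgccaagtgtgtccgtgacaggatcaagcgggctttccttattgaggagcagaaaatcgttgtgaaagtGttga
Gm10154: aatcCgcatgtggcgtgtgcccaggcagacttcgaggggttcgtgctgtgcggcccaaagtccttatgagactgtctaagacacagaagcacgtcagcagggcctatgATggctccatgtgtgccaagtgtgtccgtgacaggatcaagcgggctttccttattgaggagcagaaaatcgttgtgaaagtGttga
Rpl34-ps1 differs from its parent at 2 positions (T132C and C318G). Gm10154 carries both of these and also G236A and C237T. The longest identical runs were 185 and 131 bases.

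Depth was 42875143 estimated counts for WT and 55179026 for cKO, and levels are given as CPM, the scaled counts in every 1000000 of the library. The 15917 genes whose average over both libraries reached 1 CPM were called measured. A gene was counted as lower or higher where the 2 libraries differed by at least 1.5-fold and the 95% counting interval left out a ratio of 1. Of the tissue markers, 4 of 4 cord Hox genes were measured, and the forebrain gene Emx1 was at 0 in both libraries. All 6 oligodendrocyte marker genes were lower in the cKO library (median log2 ratio -0.91), and their summed share of all counts went from 1.61% to 0.78%. Neuron markers had a median of 0.19 and microglia markers one of -0.14. Secisbp2l itself had 588 (WT) and 466 (cKO) CPM. Xist, the X-linked RNA of X inactivation, had 820 and 0.236, so sex-linked expression differs along with genotype. Genotype, sex, cell makeup and library cannot be told apart in this design, and in whole tissue fewer cells of a type and less RNA per cell cannot be told apart either. The part of each of these in the ribosomal protein ratios was not tested.

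Most canonical ribosomal protein genes stood slightly lower in the cKO library, 73 of the 77 within 1.19-fold. The median log2 ratio of cKO over WT was -0.07 for the 46 canonical large subunit genes and -0.09 for the 31 small subunit genes, against 0.01 for all measured genes. From the authors' TPM in place of CPM, the medians over the large and small subunit members were closer to 0, at -0.04 and -0.05. From their FPKM, also scaled for transcript length, they were -0.08 and -0.09. The median of all measured genes was not taken in either unit, so the 0.01 belongs to CPM only. Of the 83 measured members, 76 had a ratio below 0, where 47.7% of all measured genes did. By the size rule 3 members were lower (Rps3a2, Rps3a3 and Rpl34), where 3.42% of all measured genes were, and 0 were higher, where 2.46% were. Those 3 are 2 processed copies and a parent whose reads may be divided with its copies, so the counts past the rule are described family by family below.

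**Figure D1:**
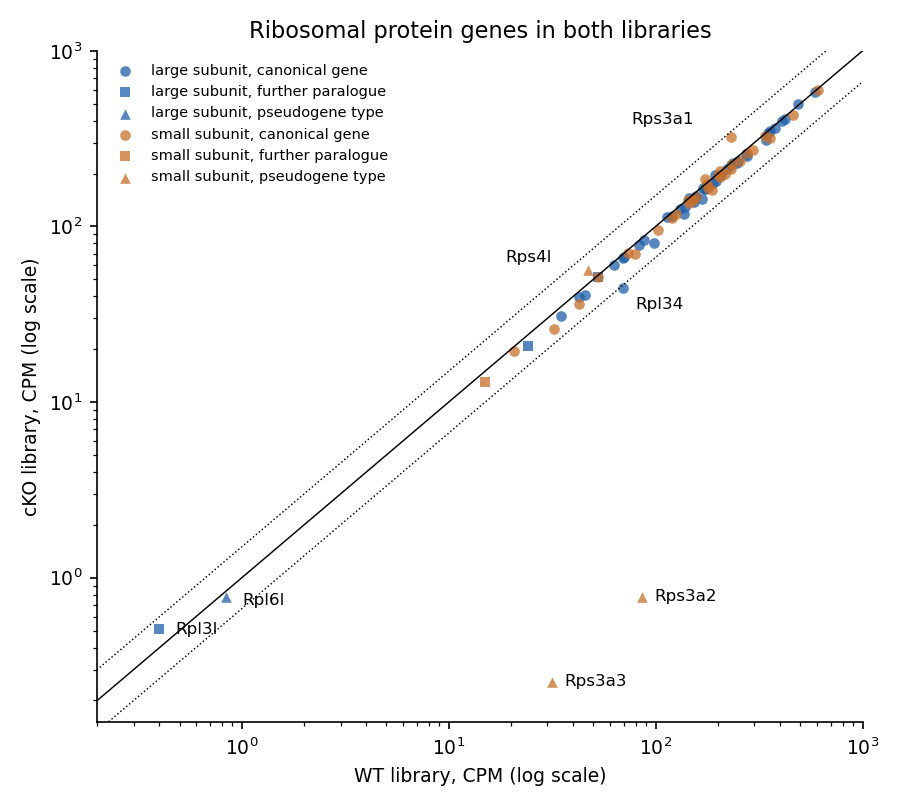
Level of each ribosomal protein gene in the WT library (x axis) and the cKO library (y axis), both in CPM on log scales. Points are genes with counts in both libraries, coloured by subunit and shaped by kind of locus. The solid line marks equal levels and the dotted lines 1.5-fold. The canonical genes follow the solid line from 20.8 CPM (Rps28 in WT) to 611 CPM (Rpsa in WT), while Rps3a2 and Rps3a3 lie far below it.

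The set as a whole was abundant and closely balanced. Members took 1.55% of all counts in WT and 1.47% in cKO. Per length, in the authors' TPM, a level scaled for transcript length, they took 4.04% and 3.91%. Summed over genes, the large subunit had a log2 ratio of -0.07 (95% counting interval -0.08 to -0.06) and the small subunit one of -0.08 (-0.09 to -0.07). The intervals of the 2 sums overlap. Single canonical genes ranged in TPM from 82.5 to 1530 in WT, with a median of 516, and from 87.5 to 1430 in cKO, with a median of 507. The order of levels was nearly the same in both libraries: across the 77 genes, which share both libraries and their lengths, the log TPM values had a Pearson r of 0.992 and a Spearman rho of 0.987.

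Among large subunit genes the highest TPM belonged to Rplp1, a protein of the acidic stalk that recruits elongation factors. Its TPM was 1529 in WT and 1431 in cKO, from 340 and 310 CPM, a log2 ratio of -0.13. Rpl13 followed at 1217 and 1208 TPM, Rpl23a, which lines the exit of the nascent chain tunnel, at 1008 and 973, and Rpl8, which lies by the peptidyl transferase centre, at 935 and 936. The 4 genes were within 1.1-fold between the libraries. In the small subunit, Rps2, a protein of the message entry site, led at 975 and 941 TPM. Rps14, of the platform, stood at 957 and 932 TPM, Rps15, near the decoding centre, at 919 and 951, and Rps7 at 855 and 779. Of these 4, Rps7 had the lowest log2 CPM ratio, -0.17 (-0.21 to -0.12).

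Some of the lowest TPM values of the canonical genes belong to genes with long annotated transcripts. Rps15a stood at 82.5 TPM in WT and 87.5 in cKO although its CPM was 173 and 187. Its main transcript in the table is 5179 bases, where the median over canonical genes is 799. Rps20 (92.5 and 88.6 TPM, main transcript of 3706 bases) and Rpl18 (126 and 105 TPM, 2989 bases) were the other two above 2500 bases. Rps28, at 120.0 and 117 TPM, was as low with a main transcript of 382 bases. The TPM values of Rps15a, Rps20 and Rpl18 therefore rest on which transcript the authors' counting credited.

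**Figure D2:**
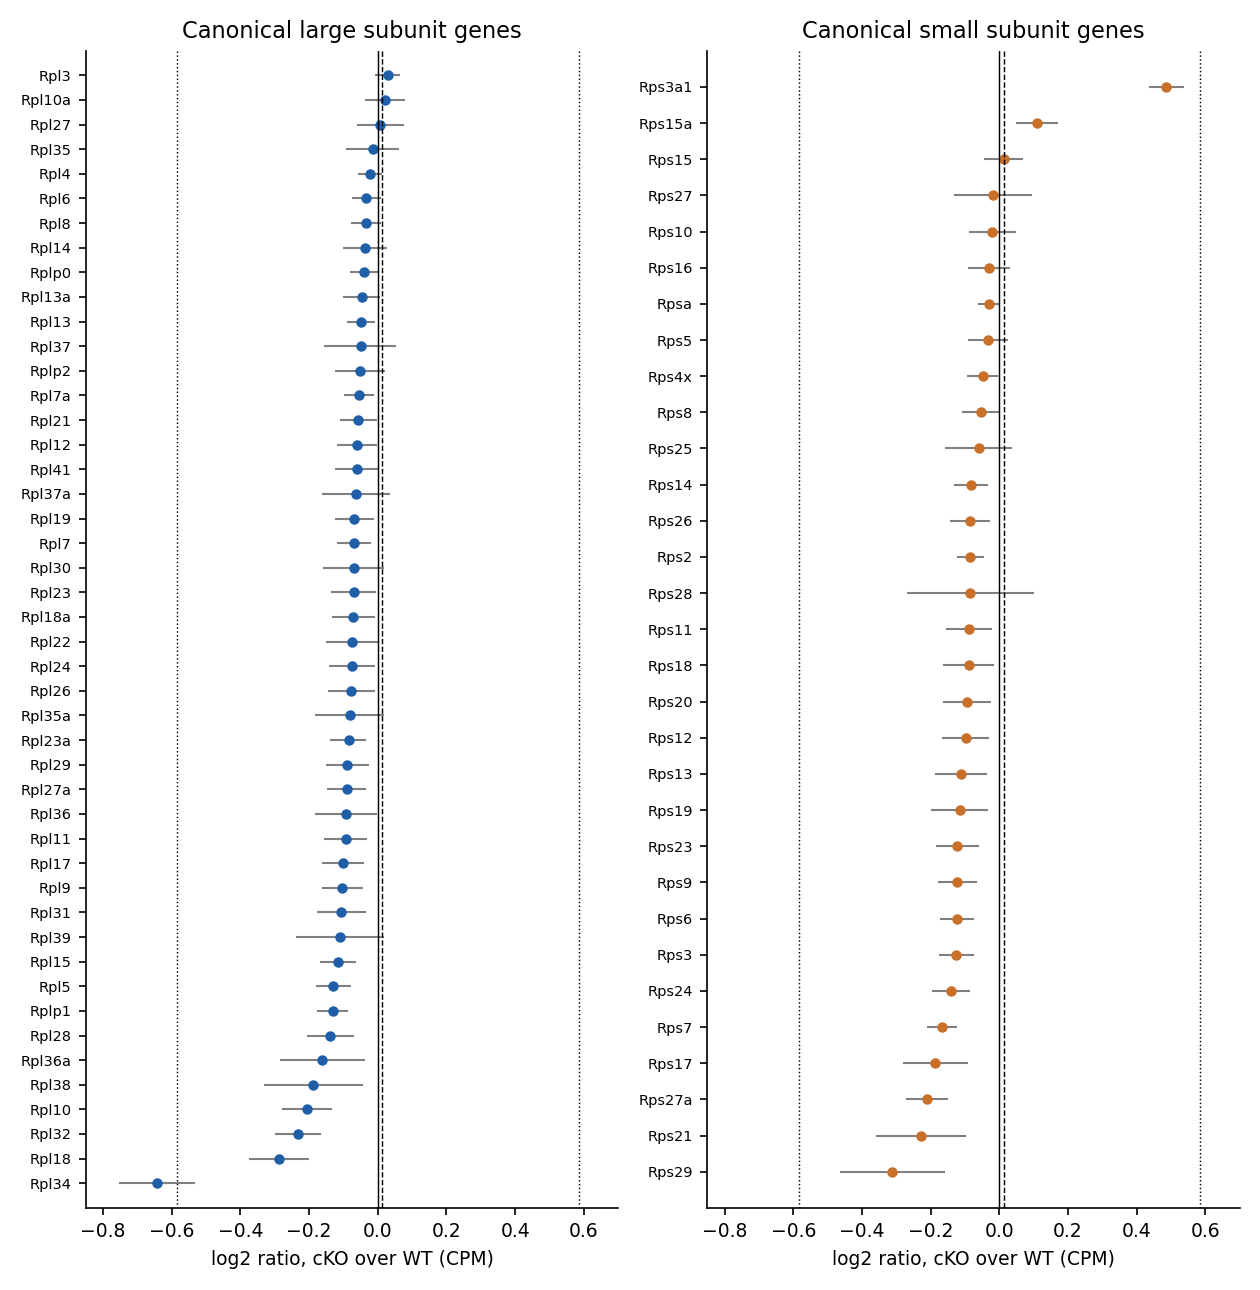
Log2 ratio of cKO over WT in CPM for each canonical gene of the large (left) and small (right) subunit, with its 95% counting interval as a bar. The solid vertical line marks 0, the dashed line the median of all measured genes (0.01), and the dotted lines 1.5-fold. Most points lie in a narrow band just below 0, with Rpl34 at -0.64 and Rps3a1 at 0.49 farthest from it.

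The spread among canonical genes was small. Of the 77, 73 had a log2 ratio within 0.25 of 0 (94.8%), where 71.9% of all measured genes and 83.9% of other protein-coding genes of at least 50 CPM did. The share within 0.25 of 0 was 95.7% in the other TOP RNAs described below and 91.3% in ribosome assembly factors. In mitochondrial ribosomal protein genes it was 88.5%, and in translation control genes 88.0%. The SD over the 77 was 0.11. The counting interval lay below 0 for 49 genes, held 0 for 26, and lay above 0 for 2, Rps15a and Rps3a1. A gene whose interval holds 0 may still differ by up to the bounds of that interval.

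At the lower end of the large subunit, Rpl34 was followed by Rpl18 at 98.4 CPM in WT and 80.6 in cKO (log2 ratio -0.29, -0.38 to -0.20). Rpl32 stood at 167 and 142 CPM (-0.23), and the paralogue Rpl22l1 at 24.2 and 20.8 CPM (-0.22). Rpl10, an X-linked gene whose protein is among the last to join the large subunit, stood at 136 and 118 CPM (-0.21). At the upper end were Rpl3, whose protein reaches toward the peptidyl transferase centre, at 485 and 495 CPM (0.03), and Rpl10a at 195 and 197 (0.02). Rpl27 (0.01), Rpl35 (-0.01) and Rpl4 (-0.02) came next, and the counting interval of each of these 5 held 0.

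In the small subunit, the lowest canonical ratios belonged to Rps29 at 32.2 CPM in WT and 25.97 in cKO (-0.31, -0.47 to -0.16), Rps21 at 42.5 and 36.3 CPM (-0.23), and Rps27a at 188 and 162 CPM (-0.21). Rps27a is made as a fusion of ubiquitin with the ribosomal protein. The highest were Rps3a1 at 231 and 324 CPM (0.49, 0.44 to 0.54) and Rps15a at 173 and 187 CPM (0.11, 0.05 to 0.17). Rps15 stood at 0.01 and Rps27 at -0.02, both with intervals that held 0.

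Rps3a1 was the canonical gene highest in cKO relative to WT, and its copies were the lowest rows of the set. The deposited counts of Rps3a1 were 9915 in WT and 17854 in cKO. Rps3a2 had 3674 and 43 counts, or 85.6 and 0.78 CPM, which is 110-fold lower in cKO (log2 ratio -6.78, -7.47 to -6.17). Rps3a3 had 1357 and 14 counts, or 31.6 and 0.254 CPM, 125-fold lower (-6.96, -8.28 to -5.91). Gm5586, outside the symbol rule, had 252 counts in WT and 3 in cKO (-6.76, -10.57 to -4.63). In WT, the copies found by sequence held 34.9% of the family's counts, and in cKO 0.413%. Summed with its 2 named copies, the family had 14946 and 17911 counts, a log2 ratio of -0.10 (-0.15 to -0.06). Summed with the 7 copies found by sequence it had -0.13 (-0.17 to -0.08). The parent alone therefore stood above 0, and the summed family below it, close to the median of the subunit. How reads were divided among these loci in each library, and whether the copies themselves are transcribed, was not tested.

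Rpl34 showed the opposite arrangement. The parent had 2987 counts in WT and 2461 in cKO, or 69.6 and 44.6 CPM, a log2 ratio of -0.64 (-0.75 to -0.53), which is 1.56-fold lower. Rpl34-ps1 had 1051 and 2277 counts (0.75, 0.60 to 0.91), and Gm10154 had 100 and 246 (0.94, 0.45 to 1.44). The share of family counts in copies was 28.2% in WT and 50.9% in cKO. Summed with its copies by symbol the family had a log2 ratio of -0.13 (-0.22 to -0.04), and by sequence -0.09 (-0.18 to -0.01). The size rule no longer held for either sum.

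**Figure D3:**
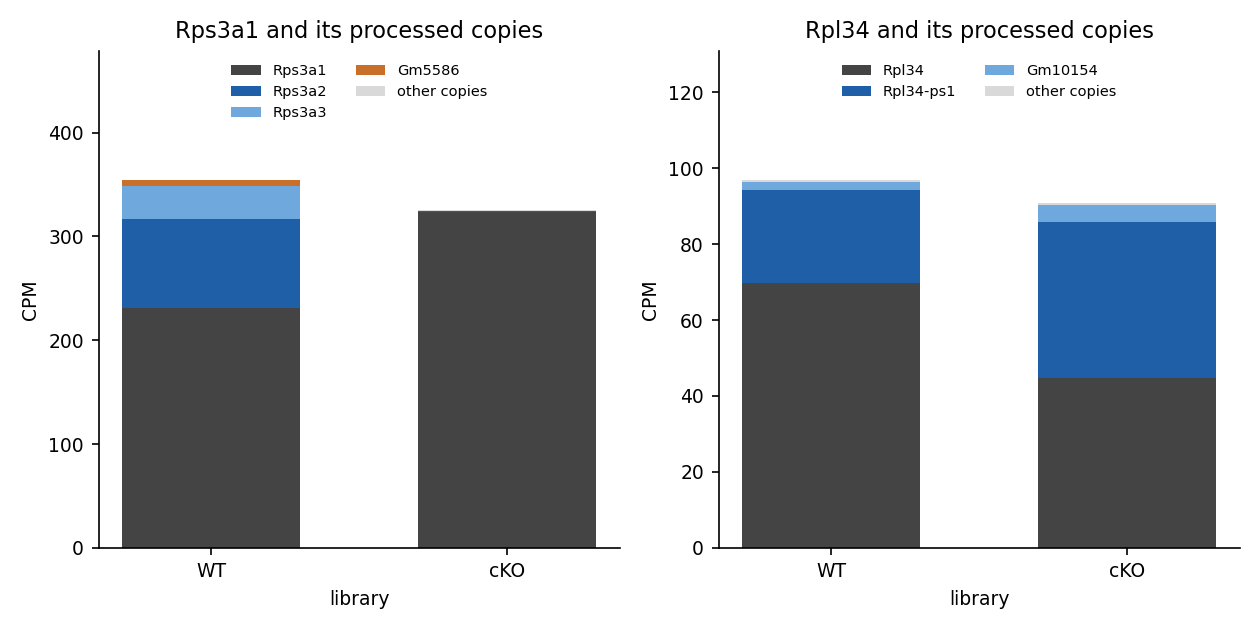
Level in CPM of Rps3a1 (left) and Rpl34 (right) in each library, stacked with their processed copies found by sequence. Each bar is 1 library and each colour 1 locus. The full bars differ little (355 and 325 CPM for Rps3a1, 97.0 and 90.9 CPM for Rpl34), while the part held by copies differs between libraries, in opposite directions in the 2 families.

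The same summing was done for all 77 parents. Requiring at least 90% identity over at least 50% of the parent's coding sequence gave 1067 copies, of which 947 were in the table, 740 had counts and 63 were measured. The copies together held 3.92% of family counts in WT and 3.35% in cKO, or 26695 and 27839 counts. Copies of Rps3a1 alone held 5304 and 74 of these counts, so the lower share in cKO rests on that family. Adding the copies moved the log2 ratio by over 0.1 in 2 families, Rps3a1 and Rpl34, and by up to 0.02 in 70. The SD over parents was 0.11 and over summed families 0.06, and the summed families ran from -0.29 to 0.11. Of the 77 sums, 72 were below 0 and 0 passed 1.5-fold. The median was -0.08 for parents and for families.

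**Figure D4:**
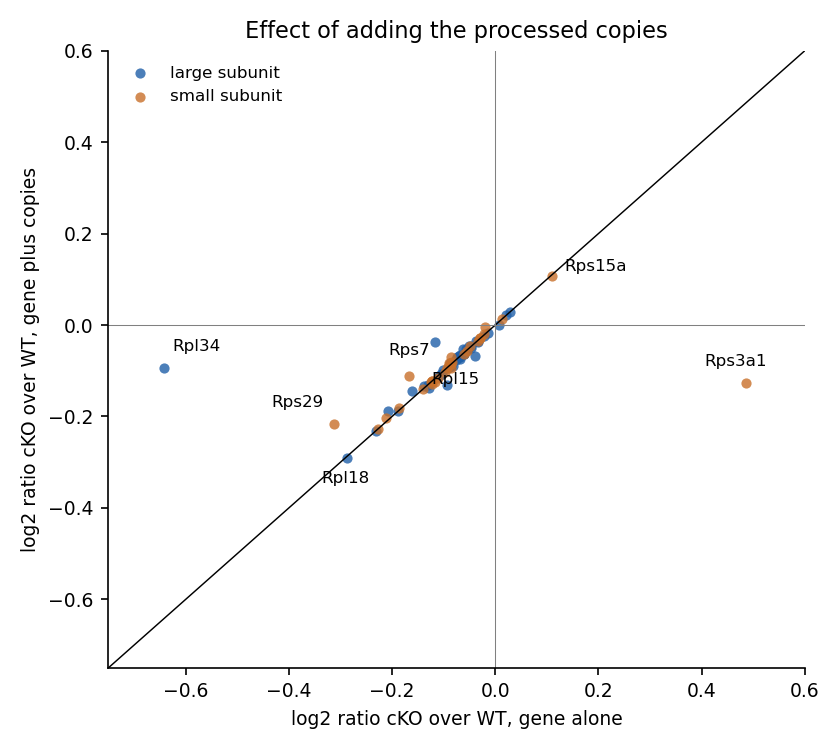
Log2 ratio of cKO over WT for each canonical gene alone (x axis) and for the gene summed with its processed copies found by sequence (y axis), coloured by subunit. The solid diagonal marks no effect of adding copies. Rps3a1 comes down from 0.49 to -0.13 and Rpl34 up from -0.64 to -0.09, and most other points stay on the diagonal.

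Some other families held sizeable copies, chosen for mention after their values were seen. For Rps7, the X-linked copy Gm6472, 3 bases from its parent, had 1173 and 2077 counts (0.46), and the family summed over all its copies was -0.11 against -0.17 for Rps7 alone. For Rpl15, Gm10020 had 931 and 1505 counts (0.33), and the family summed over all its copies was -0.04 against -0.12 for Rpl15 alone. For Rplp0, the stalk base protein, Gm8730 had 6302 and 7178 counts (-0.17) and the family summed over all its copies was -0.07 against -0.04. Rps29 with its copies had -0.22 against -0.31. By the size rule 5 of the 63 measured copies were lower and 2 higher, where 3.42% and 2.46% of all measured genes were. Of these copies, 5 belong to Rps3a1 and Rpl34 and are given above. The other 2 were Gm10036, a copy of Rpl11, with 255 and 53 counts (-2.63, -3.29 to -2.02), and Gm6311, a copy of Rps2. Gm6311 had 97 and 78 counts (-0.68), and its interval of -1.32 to -0.04 only just left out 0.

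Of the 6 further paralogues and the intronless loci outside the Rps3a family, 5 were below the level called measured. Rpl3l, the relative of Rpl3 known from striated muscle, had 17 counts in WT and 28 in cKO. Rpl39l and Rpl10l, known from the testis, had 0 and 3 counts, and 0 in both libraries. Rpl6l had 36 and 43 counts, and Rps12l1 had 0 in both. A count of 0 allows up to 3 fragments. Rpl7l1 stood at 52.9 and 51.4 CPM (-0.04), and Rps27l, the p53-responsive relative of Rps27, at 14.99 and 13.1 CPM (-0.20, -0.42 to 0.03). Rps4l, an intronless relative of the X-linked Rps4x, was higher in cKO at 47.3 and 56.2 CPM (0.25, 0.13 to 0.37), below the 1.5-fold of the size rule. Rps4x itself stood at 336 and 325 CPM (-0.05).

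Some genes of the ribosome lie outside the symbol rule, and those given here did not pass the size rule. Fau, whose product is a ubiquitin-like fusion to a small subunit protein, stood at 155 CPM in both libraries (0.00, -0.07 to 0.07). The paralogue Rpl36al had 39.9 and 37.7 CPM (-0.08). The intronless Rps27rt had 90 and 140 counts (0.28, -0.29 to 0.85), and Rpl37rt, not measured, 20 and 31.

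Within several genes the credited transcripts differed more than the gene did. Of Rpl7 counts, transcript Rpl7-201 held 56.6% in WT and 42.0% in cKO, and Rpl7-205 held 3.92% and 18.6%. Rpl35a-202 held 18.6% and 6.49% of Rpl35a counts, while Rpl35a-201 held 63.4% and 73.0%. Rps19-202 held 15.2% and 7.78% of Rps19. Exons of 26 canonical genes also overlap another counted gene on the same strand, and those of 16 one on the other strand. Most of the same-strand genes had few counts. Their largest counts over both libraries were 4628 at Rpl19, 482 at Rpl24 and 95 at Rpl13a. Genes on the other strand had up to 6248, at Rpl5. Transcript shares are estimates that divide reads among overlapping transcripts, and they were named after their values were seen.

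The ratio varied a little with transcript length. The 24 canonical genes whose main transcript is under 600 bases had a median log2 ratio of -0.09, and the 53 longer ones one of -0.07. Other protein-coding genes under 600 bases had a median of -0.13 over 121 measured genes, and longer ones 0.01 over 14098. Short transcripts were thus lower in cKO outside the ribosome too, and how much of the ribosomal protein ratio goes with length was not tested. Across the 77 genes, which share both libraries, the ratio had a Pearson r of 0.23 with log2 length and 0.37 with log2 CPM, given as a description. The 600-base and 50 CPM limits were chosen after values were seen. The 4 X-linked canonical genes had a median of -0.14, from -0.21 to -0.05, and the 73 autosomal ones one of -0.08.

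Canonical genes also share features of structure that no ratio was used to find. Of the 77, 30 (39.0%) carry an annotated small nucleolar RNA within the gene, where 1.43% of the other measured protein-coding genes do. Rpl4 carries the most, 5. Hosts had a median log2 ratio of -0.07 and the other 47 genes one of -0.09. RefSeq start regions (GRCm38.p6, from 250 bases before to 50 after the start) matched 57 of the 77. The letters CGGAAG, read on both strands, occurred in 70.2% of these genes and in 18.8% of all 27025 genes with a start region. A gene was counted if any of its start regions held the letters. GGGCGG occurred in 61.4% against 38.2%, AAGATGGC in 8.77% against 3.19%, and TATAAA in 10.5% against 15.7%. A C followed by at least 4 pyrimidines within 5 bases of the start, the TOP form, occurred in 47.4% against 21.2%. With at least 7 pyrimidines within 30 bases, a form added after the first was seen, it was 63.2% against 22.4%. A match describes the letters in the window and not a bound factor.

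Related lists of the translation apparatus had medians between -0.05 and 0.00. Over all measured genes, 3.42% were lower and 2.46% higher by the size rule. At those shares few genes would pass in lists of this size. Of 23 other TOP RNAs, 0 passed the size rule and the median was -0.04. The lowest of these RNAs was Gas5 at 32.9 and 22.4 CPM (-0.56, -0.72 to -0.40), just short of the rule. Their most abundant members were Eef1a1, the elongation factor that delivers tRNA, at 2592 and 2520 CPM (-0.04), Eef2 at 1802 and 1855 (0.04) and Tpt1 at 553 and 483 (-0.20). Of 46 ribosome assembly factors 0 passed, with a median of -0.01. Among them the nucleolar protein Ncl stood at 350 and 356 CPM (0.03), Nop56, of the small nucleolar RNA complex that methylates ribosomal RNA, at 75.5 and 87.5 CPM (0.21) and Snu13 at 90.7 and 85.4 (-0.09). Of 25 translation control genes 0 passed, with a median of 0.00, led by Eif4g2 at 1087 and 1046 CPM (-0.06), Eif4a1 at 265 and 232 (-0.19) and Eif4g1 at 367 and 405 (0.14). Of 78 mitochondrial ribosomal protein genes, 1 was lower, Mrpl53 at 6.53 and 3.99 CPM (-0.71, -1.08 to -0.34), 0 were higher, and the median was -0.05. By the mean TPM of both libraries their most abundant members were Mrpl20 (0.04), Mrpl42 (-0.24) and Mrpl12 (0.15). Medians of these lists are given beside those of the cytosolic genes with no test of the difference.

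**Figure D5:**
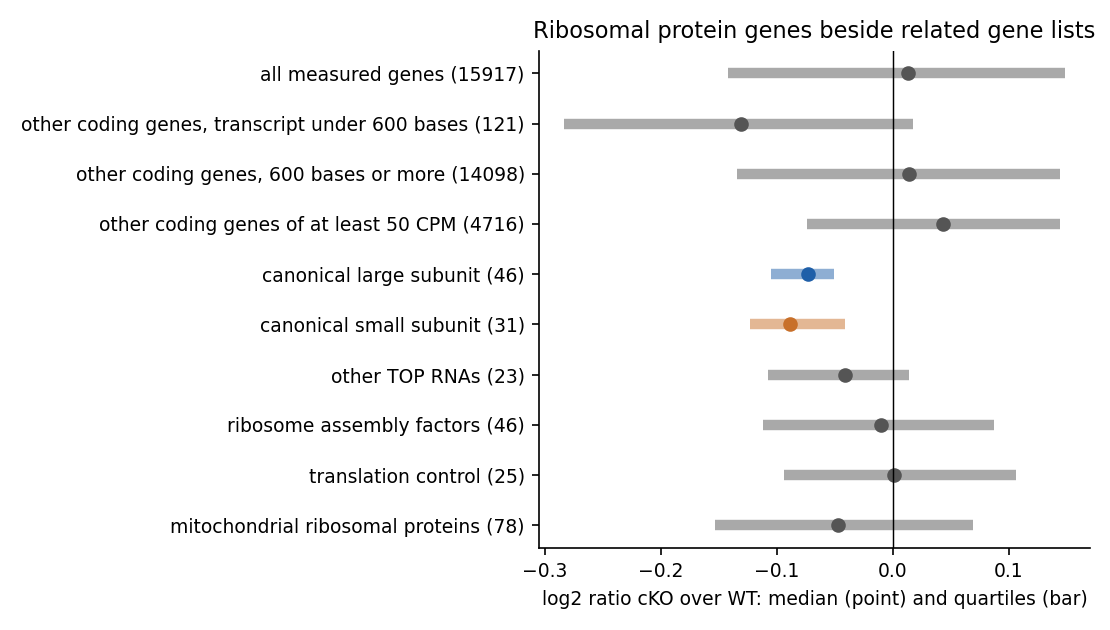
Median (point) and quartiles (bar) of the log2 ratio of cKO over WT in CPM for the canonical large and small subunit genes, related lists and background classes of genes, with the number of measured genes in brackets. The bars of the canonical genes lie wholly below 0 and are the shortest shown. The short coding genes outside the ribosome have the lowest median, -0.13.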

How the data were processed

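From spinal cord RNA, 1 WT and 1 cKO library were made with a mRNA-seq kit, per the labels' protocols. CASAVA, Bowtie2 2.3.2 and the build GRCm38.p6 are named, per the submitters' processing notes. How reads were counted, on which annotation and with what strand setting, is not given in the sources used here. For 51826 genes and 128622 transcripts the authors deposited whole-number estimated counts, TPM and FPKM, per the file headers. How these estimates treat reads that match near-identical loci equally well is not given either.

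Here, counts were scaled with TMM factors (edgeR 4.0.16, R 4.3.3), expressed as CPM, and compared as log2 of cKO over WT without a pseudocount. Zeros were replaced by a floor of 3 fragments. Exact Clopper-Pearson 95% intervals (scipy 1.17.1, Python 3.11.15) cover counting error only. One fragment was taken as 2 counts, because unrounded values, recomputed here for genes with 1 transcript as a constant times the deposited FPKM times transcript length, lay near even numbers more often than near odd ones. That check was run over 3 windows of values, the later windows being chosen after the first had been seen. From 0.5 to 20.5 counts, 30.0% of WT genes lay within 0.2 of an even number and 21.7% of an odd one, from 0.8 to 10.2 counts 34.2% and 24.2%, and from 1.5 to 9.5 counts 41.0% and 14.8%. The excess of even values was present in all 3 and in cKO, but its size depends on the window. Intervals on the counts as deposited were an alternative.

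Processed copies were found with blastn 2.17.0 on the sense strand against GENCODE M21 transcripts; that rule and its limits were chosen after values had been seen, as were the choice of printed stretches and the exclusion of -ps symbols from the mitochondrial list. Of the 88 members, 87 lay within 5000 bases of their GENCODE M21 position. Members and lists were chosen with earlier results of these data known. Genes named were those past the size rule, the 4 of highest TPM and the 5 highest and lowest ratios in each subunit (at least 5 CPM), unmeasured members, paralogues, families moved by over 0.1 by their copies, and the leading genes of each other list. No significance test was run, since a single library per genotype gives no residual degrees of freedom. The size rule, with a different level filter, was also run on simulated counts that held counting error only. The outcome of that run is not given here. Some results for genes that this rule takes are not reported here.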

Additional observations from a re-analysis of the deposited data

How the results depend on the processing

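No paired analysis was possible because each group has 1 library and the results come from no test. Of 16 alternatives, some gave ratios for single members, and in those no called member changed direction. Rps3a2 and Rps3a3 had no row of their own in the family sums. The 3 members lower in cKO became 0 when families were summed by symbol and 0 by sequence. They became 1 (Rpl34) with canonical members only, a setting added after seeing the data. These settings leave out Rps3a2 and Rps3a3 as rows, so a fall to at most 1 was fixed in advance. Only the outcome for Rpl34 in the family sums was open. Rpl34 went from -0.64 to -0.13 by symbol and -0.09 by sequence. The medians of -0.073 (large) and -0.089 (small) and the sums of -0.071 and -0.081 stayed below 0 under every setting run. With upper quartile factors the large median was -0.055 and the sums -0.054 and -0.063. With the median of all measured genes set to 0 the sums were -0.084 and -0.093. With the authors' TPM, at a pseudocount of 0.1 and of 1, the medians were -0.037 and -0.050 and the sums -0.040 and -0.058. With FPKM the small sum was -0.097. Means in place of medians gave -0.096 and -0.458, the latter carrying Rps3a2 and Rps3a3. With canonical members only the small sum was -0.056. Intervals on the counts as deposited left 3 members lower and 0 higher. Taking only each gene's main transcript moved 15 members beyond their counting intervals. The depth gives narrow counting intervals, and the spread between animals was not measured.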
